A study of Mus musculus with 4 samples.

Results

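The RNAs described here are 9 long noncoding RNAs linked to p53, growth arrest, nuclear bodies or imprinting: Trp53cor1, Pvt1, Neat1, Malat1, Meg3, Rian, Gas5, Snhg1 and H19. They were taken by symbol from a list, after matching each gene identifier without its version to the GENCODE vM21 annotation, and all 9 were found among the 55487 gene identifiers of each table. RNA sequencing was done on primary cultured mouse astrocytes in 4 libraries, 1 for each combination of an OASIS genotype label (deficient or wild type) and a treatment label (doxorubicin or untreated). Creb3l1 encodes OASIS, a membrane-bound transcription factor of the endoplasmic reticulum. The groups were deficient with doxorubicin, wild type with doxorubicin, deficient untreated and wild type untreated. Cultures of all 4 groups were 5 days past confluence. Those given doxorubicin, a topoisomerase poison that breaks DNA, received 1 µg/ml for 1 h and were collected 24 h after the drug was washed out. All cultures were grown in serum. The sources used here do not give the strain, the allele, the age of the mice or the number of animals behind a culture.

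Long noncoding RNAs are transcribed and usually spliced like messenger RNAs but are not translated into known proteins, and several act beside the gene they are made from. Trp53cor1 (lincRNA-p21) is a transcriptional target of p53 that lies next to Cdkn1a, the gene of the cell cycle inhibitor p21. Pvt1 lies downstream of the growth regulator Myc. Neat1 builds paraspeckles and Malat1 gathers in nuclear speckles, both bodies that hold splicing and RNA-binding proteins. Meg3, Rian and H19 are expressed from the maternal chromosome of imprinted clusters, beside the paternally expressed Dlk1 and Igf2. Gas5 and Snhg1 carry small nucleolar RNAs (snoRNAs) in their introns, and Gas5 was first isolated from growth-arrested mouse cells.

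Total counts ran from 17481188 to 22559613 per library, and each comparison covers 15596 genes whose mean reached 1 CPM (count share scaled to 1000000 reads, with TMM factors). The floor, set at 3 counts, lay at 0.131 to 0.174 CPM. Creb3l1 was lower in the libraries labelled deficient but not absent from them, at 11.9 CPM in deficient and 27.8 CPM in wild type with doxorubicin, and at 15.1 CPM in deficient and 48.5 CPM in wild type untreated. Xist, the RNA that silences an X chromosome in female cells, had 2742 counts in deficient and 2547 in wild type with doxorubicin, against 0 in deficient and 1 in wild type untreated. The 4 Y-linked genes checked had 0 counts in both doxorubicin libraries and 353 to 1567 counts in the untreated ones. Below, the treatment and the sex of a culture cannot be told apart, while deficient and wild type always share the sex pattern. In bulk RNA, fewer cells of a type and less RNA per cell cannot be told apart.

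The ends of these RNAs matter to the measurement, because the library kit (SMART-Seq v4) primes cDNA on poly(A). The last 60 bases of 4 transcripts, at GRCm38 positions from GENCODE vM21, are shown with the poly(A) signals AATAAA and ATTAAA, searched on the transcript strand only, in capitals. Neat1 is shown as its short and its long form, Malat1 and H19 as single forms, all on the minus strand.
Neat1-202 (chr19:5842307-5842366): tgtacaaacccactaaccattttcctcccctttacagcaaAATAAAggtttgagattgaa
Neat1-201 (chr19:5824708-5824767): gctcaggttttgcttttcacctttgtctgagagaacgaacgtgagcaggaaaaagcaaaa
Malat1-201 (chr19:5795690-5795749): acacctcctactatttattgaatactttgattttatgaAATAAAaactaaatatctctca
H19-201 (chr7:142575531-142575590): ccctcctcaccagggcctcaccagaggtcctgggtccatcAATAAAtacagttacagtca
The short Neat1 form, of 3004 bases, holds the signal, and the long form, of 20771 bases, ends in an A-rich run without it. The signal stands in the last 60 bases of 40.1% of 9100 lincRNA transcripts of the annotation. Each of the 9 RNAs has at least 1 transcript with it, with shares from 1 of 7 for Trp53cor1 to 3 of 4 for Malat1. The shares of Trp53cor1, Rian, Neat1 and Meg3 lay below 40.1%, and those of the other RNAs above it. Rian, Gas5 and Snhg1 are annotated as processed transcripts and not as lincRNA, so that percentage does not cover their type. A signal in an annotated end does not show that the RNA in the cell carries a poly(A) tail, for Malat1 as for the others. Tails were not measured. The tables give 1 value per gene, so isoforms were not measured separately.

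Per length as deposited, Malat1 was far above the others, and the order of the 9 levels was stable at the top and changed at the bottom. In deposited TPM (a share scaled by length), Malat1 lay between 8199.5 and 10139.6 TPM in the 4 libraries. Its counts over TPM imply a mean length of only 504 to 533 bases, against 6983 bases for its main transcript. The size of its lead thus rests on how reads were assigned, as described below. Gas5 followed at 253 to 354 TPM in every library. Meg3 (53.1 to 75.1 TPM) and Neat1 (39.9 to 72.1 TPM) overlapped in range and exchanged places in wild type untreated, so their order is not separated by the spread over libraries. Snhg1 lay at 21.9 to 39.4 TPM. The lower 4 RNAs exchanged places by genotype label. In wild type with doxorubicin, Trp53cor1 also stood above Snhg1, at 33.2 against 26.7 TPM. Trp53cor1 was the lowest of all 9 in both deficient libraries, at 2.06 TPM with doxorubicin and 3.24 TPM untreated, but reached 33.2 and 22.7 TPM in wild type, above Pvt1 in one library and just below it in the other. H19 was the lowest in both wild-type libraries, at 0.674 TPM with doxorubicin and 1.10 TPM untreated, and reached 10.7 and 5.00 TPM in deficient ones. Pvt1 ranged from 8.11 to 23.8 TPM and Rian from 5.31 to 16.6 TPM.

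**Figure D1:**
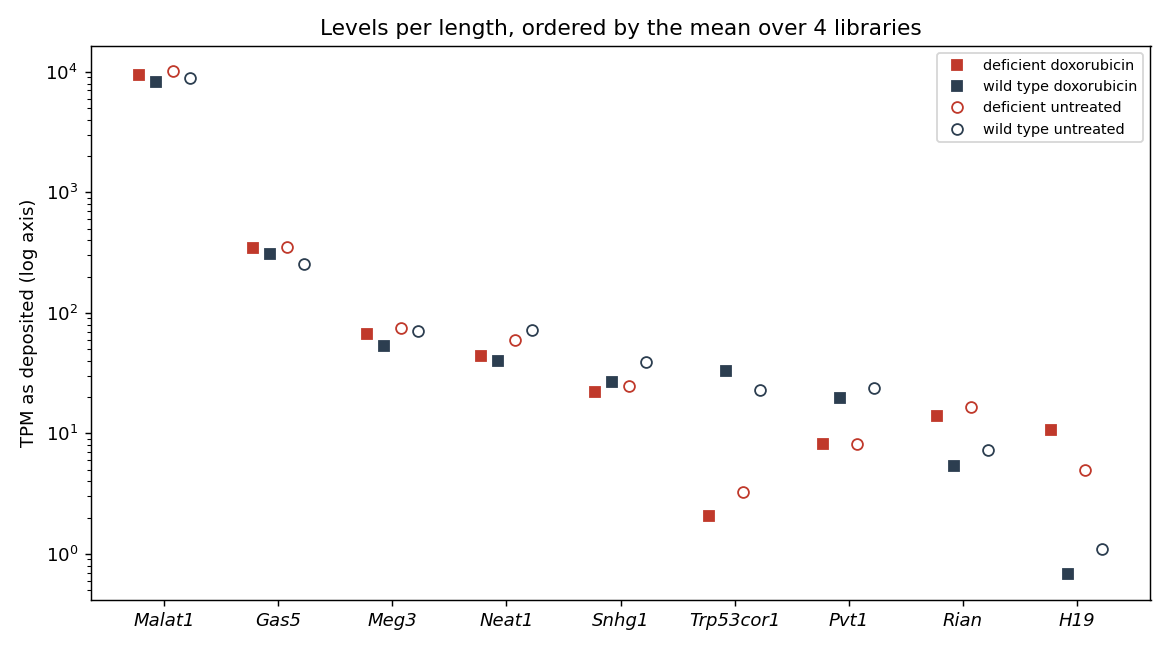
Deposited TPM of the 9 long noncoding RNAs on a log axis, 1 symbol per library (squares with doxorubicin, circles untreated, red deficient, dark wild type), ordered by the mean over 4 libraries. Malat1 stands at 10139.6 TPM at most, and Trp53cor1 and H19 spread most widely, by 16.1-fold and 15.9-fold between their highest and lowest library.

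The first question was how the RNAs differ between deficient and wild-type astrocytes. H19 and Rian were higher and Trp53cor1 and Pvt1 lower in the deficient libraries under both treatment labels, and Neat1, Malat1 and Meg3 were slightly higher, save Neat1 untreated on the TPM scale. In an additive test of genotype over all 4 libraries (edgeR's quasi-likelihood test, Benjamini-Hochberg adjusted over 15596 genes), 7 of the 9 RNAs were called at an adjusted p of at most 0.05, 5 higher and 2 lower, beside 23.8% of all genes tested. Gas5 and Snhg1 were not called. Without the treatment term, 3 of the 9 were called, Trp53cor1, Rian and H19. Between single libraries, 4 of 9 differed at least 2-fold after doxorubicin, beside 20.3% of all genes, and 2 of 9 did so untreated, beside 20.0%. The median log2 ratio (of CPM + 1) over the 9 was 0.28 after doxorubicin and 0.40 untreated, against 0.02 and -0.03 over all genes tested. The additive test has 1 residual degree of freedom and treats both treatment labels as repeats of the genotype contrast, so its p-values measure the spread among these 4 libraries only. A ratio between 2 single libraries has no replicate check, and its 95% interval covers counting error only. Where both deficient values lie on one side of both wild-type values, this describes the values only. The share of all genes ordered that way is not given here.

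**Figure D2:**
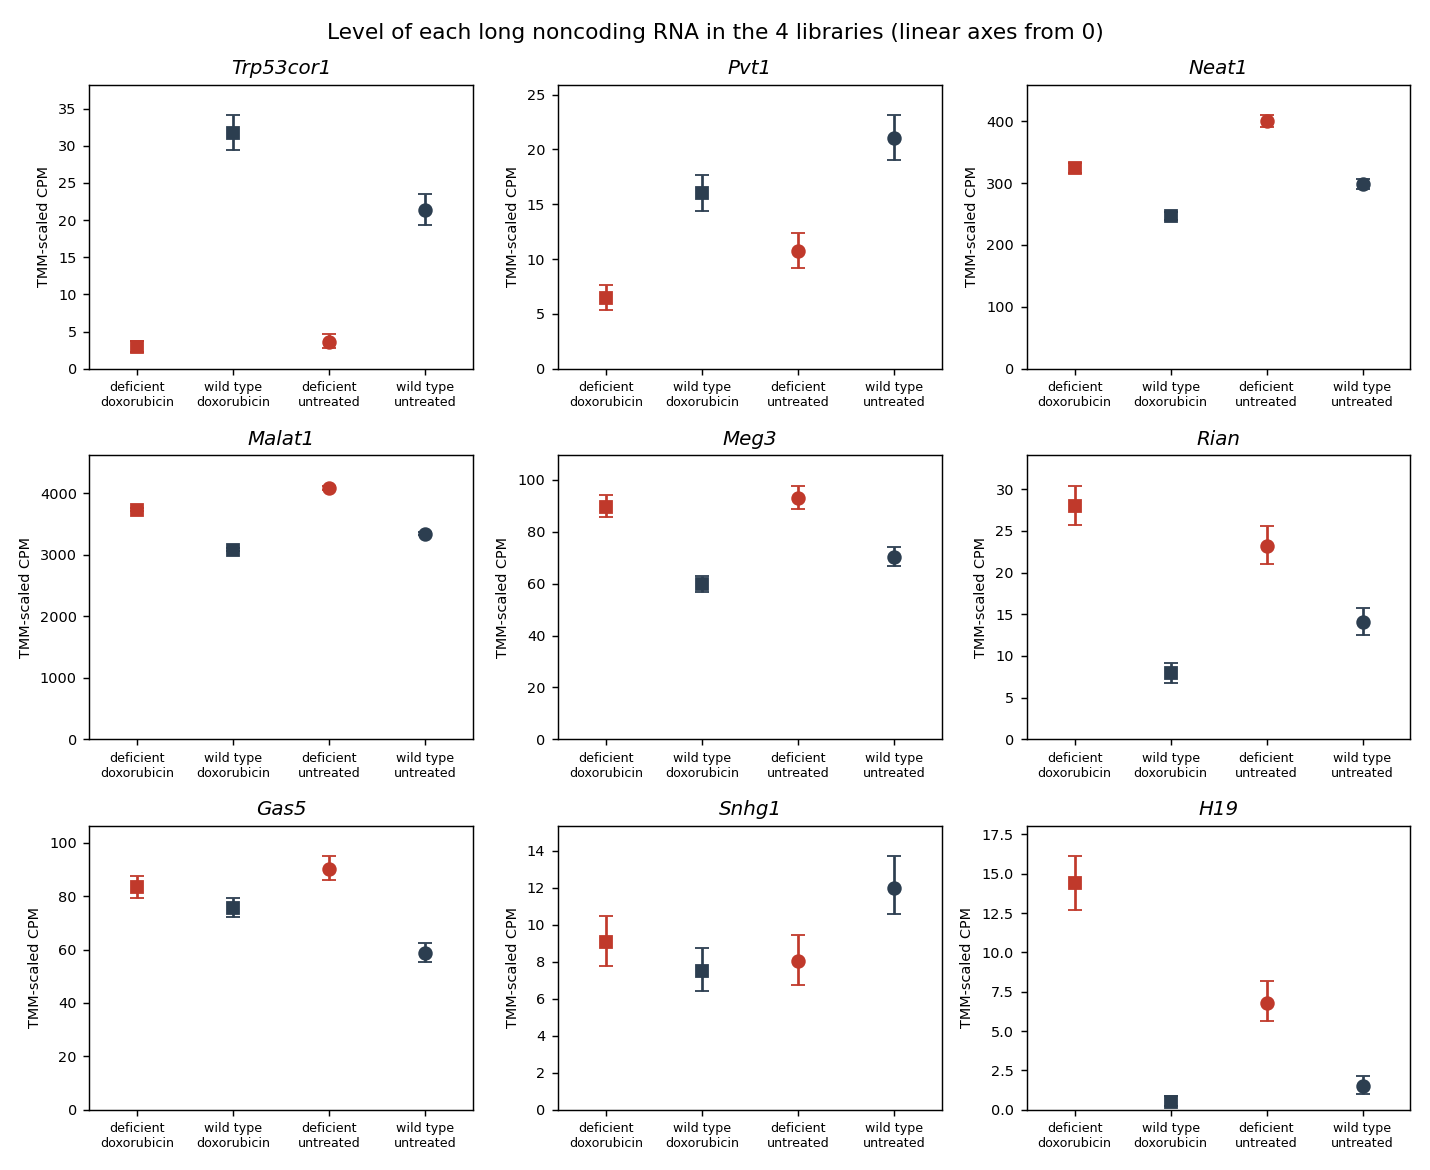
TMM-scaled CPM of each long noncoding RNA in the 4 libraries, on linear axes from 0; bars are exact 95% Poisson counting intervals, squares mark doxorubicin, red marks deficient and dark marks wild type. Trp53cor1 stands at 2.93 and 3.6 CPM in the deficient libraries against 31.7 and 21.4 CPM in the wild-type ones, and H19 at 14.4 and 6.8 CPM against 0.48 and 1.51 CPM.

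**Figure D3:**
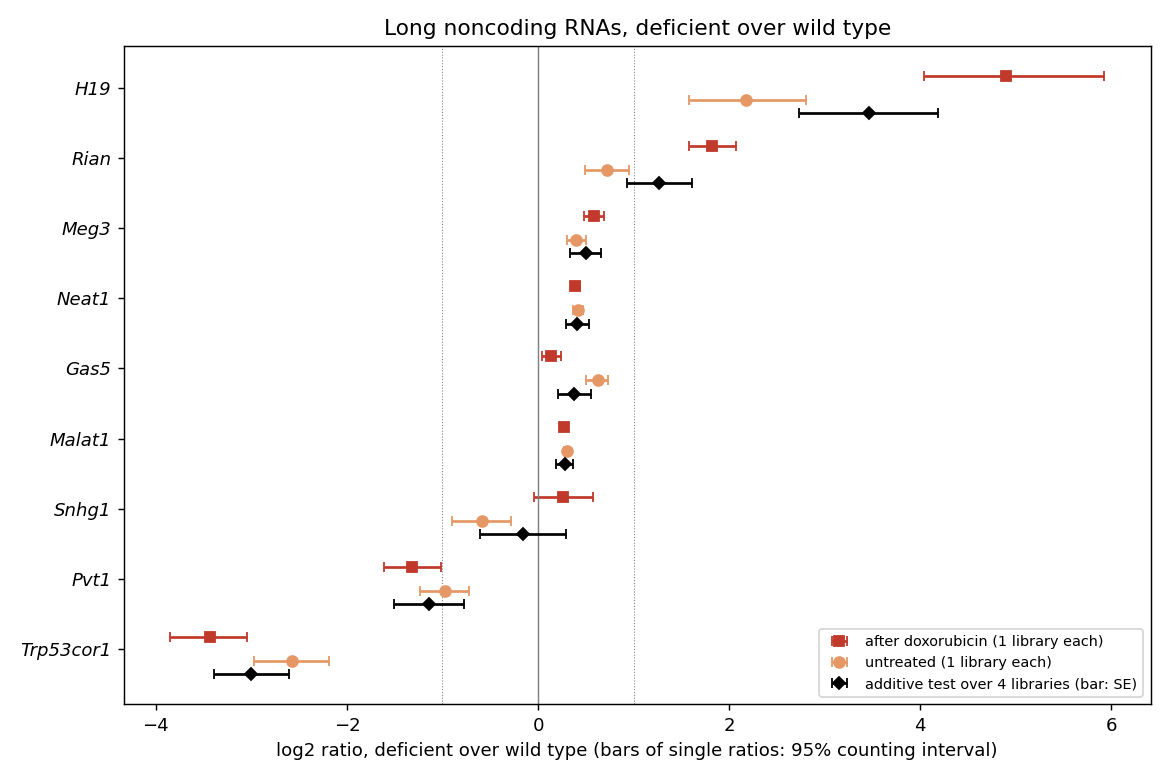
Log2 ratio of deficient over wild type for each RNA, without a pseudocount and with 95% counting intervals for the single libraries (red squares after doxorubicin, orange circles untreated), and the additive log2 fold change with its SE (black diamonds). Dotted lines mark 2-fold. H19 (additive 3.46) and Trp53cor1 (additive -3.00) lie at opposite ends, and Snhg1 lies on both sides of 0.

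Trp53cor1 (GRCm38 chromosome 17, 29057430 to 29079179, minus strand, 7 annotated transcripts) fell in the deficient libraries. It had 58 counts (2.93 CPM) in deficient and 726 (31.7 CPM) in wild type after doxorubicin, and 62 counts (3.60 CPM) in deficient and 426 (21.4 CPM) in wild type untreated. Both deficient libraries were thus far below both wild-type ones, with no overlap. The ratio was 0.0925 (95% interval 0.0695 to 0.121) after doxorubicin and 0.168 (0.127 to 0.22) untreated. The log2 fold change of the additive test was -3.00 (SE 0.396, edgeR adjusted p = 8.72e-06), and it was called under all 7 alternatives, with adjusted p between 2.30e-11 and 0.00136. An antisense gene of the annotation, AC167363.1, shares 1645 exon bases with it and had 0 and 18 counts (deficient and wild type) after doxorubicin and 0 and 4 untreated, and without strand its reads cannot be told apart from those of Trp53cor1.

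Cdkn1a, 11.8 kb away on the same chromosome, fell by nearly the same amount. Its counts were 3926 in deficient and 34221 in wild type after doxorubicin, and 3204 in deficient and 25804 in wild type untreated. In the additive test the log2 fold change was -2.86 (SE 0.117, edgeR adjusted p = 7.63e-13). Of 22 p53 targets in a list written with earlier results of these data known, 19 fell, 1 rose and 2 were not called in the same test, with a median of -2.07. The largest were Pmaip1 (NOXA, an apoptosis trigger) at -5.66, Perp (a membrane protein of apoptosis) at -4.24, Eda2r (a death receptor) at -3.77 and Trp53inp1 (a p53 cofactor) at -3.28, all with edgeR adjusted p between 4.45e-14 and 6.07e-11. The other neighbours of the 9 RNAs were less uniform: of 17 tested, Cdkn1a included, 4 fell, 2 rose and 11 were not called, with a median of -0.23. Of all genes, the same test called 23.8%.

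To show sequence at a Cdkn1a start, the RefSeq promoter table (GRCm38.p6, 250 bases before to 50 after each annotated start) was searched. The search was for the consensus decamer of p53, which is its own reverse complement, and for pairs of decamers up to 13 bases apart, the form that p53 binds. The stretch shown lies at chr17:29090886-29090957 on the plus strand, with 2 exact decamers in capitals, 12 bases apart. Decamers with a mismatch were not searched or marked, so other pairings in this stretch are not shown. The first decamer begins 73 bases before the upstream of 2 annotated Cdkn1a starts. The window of the downstream start holds 0 decamers.
Cdkn1a: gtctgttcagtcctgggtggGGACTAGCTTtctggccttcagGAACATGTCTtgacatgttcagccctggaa
A decamer stands in 8.36% of the 32851 promoter windows and a pair in 0.0731%. None of the 7 windows of the 5 RNAs found in the table (Malat1, Meg3, Rian, Gas5 and Snhg1) holds a decamer, which says only that the letters are not in those 300 bases. Trp53cor1, Pvt1, Neat1 and H19 had no entry.

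Pvt1 (chromosome 15, 62037986 to 62378096, plus strand) also fell. It had 127 counts (6.42 CPM) in deficient and 366 (16 CPM) in wild type after doxorubicin, and 184 (10.7 CPM) in deficient and 418 (21 CPM) in wild type untreated. The deficient values were lower than both wild-type values. The ratio was 0.402 (0.326 to 0.493) after doxorubicin, past 2-fold on the log2(CPM + 1) scale at -1.19, and 0.509 (0.426 to 0.607) untreated, at -0.91. The additive log2 fold change was -1.14 (SE 0.37, edgeR adjusted p = 0.0287), and 3 of 7 alternatives did not call it, with adjusted p from 0.0184 to 0.0768 over the 7.

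Myc, 47.6 kb from Pvt1, had 791 counts in deficient and 739 in wild type after doxorubicin, and 675 in deficient and 517 in wild type untreated. Its additive log2 fold change was 0.45 and was not called (edgeR adjusted p = 0.183). Of 15 targets of MYC, 2 rose, 3 fell and 10 were not called, with a median of 0.09, beside 23.8% of all genes called. The largest changes were in Cad (pyrimidine synthesis, -1.29), Pa2g4 (an ErbB3-binding growth regulator, -0.84), Cdk4 (a G1 kinase, 0.59) and Ldha (lactate dehydrogenase, 0.47).

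Neat1 and Malat1 lie 22 kb apart on chromosome 19 and moved by similar small amounts. Neat1 (5824708 to 5845478, minus strand) had 6413 counts (324 CPM) in deficient and 5655 (247 CPM) in wild type after doxorubicin, and 6883 (399.9 CPM) in deficient and 5943 (298 CPM) in wild type untreated. In CPM both deficient libraries were above both wild-type ones. The log2 fold change of the additive test was 0.41 (SE 0.121, edgeR adjusted p = 0.0176), a fold of 1.33, called under 6 of 7 alternatives (adjusted p 0.00361 to 0.0844).

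On deposited TPM the direction of Neat1 was not the same. It was 43.9 TPM in deficient and 39.9 TPM in wild type after doxorubicin, but 59.4 TPM in deficient and 72.1 TPM in wild type untreated, a log2 ratio of -0.28. The median of all genes on that scale was itself -0.21 in the untreated comparison, with 1042 genes at least 2-fold higher and 1901 lower, against 1527 and 1588 on CPM. Dividing counts by TPM gives an estimate of the mean length to which the authors' tool assigned the reads. Calibrated on 338 genes with a single transcript of at least 3000 bases and 100 counts in every library, this length for Neat1 was 9500 bases in deficient and 8484 in wild type after doxorubicin, and 8405 in deficient and 5928 in wild type untreated. Between its short form of 3004 bases and its long form of 20771 bases, wild type untreated was thus assigned the shortest mix. What moved the assignment was not tested.

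Malat1 (5795690 to 5802672, minus strand) had 73844 counts (3733 CPM) in deficient and 70519 (3079.9 CPM) in wild type after doxorubicin, and 70386 (4089 CPM) in deficient and 66477 (3338 CPM) in wild type untreated. The deficient libraries were the 2 highest. It made up 0.366% and 0.403% of the deficient libraries (doxorubicin, untreated), and 0.313% and 0.341% of the wild-type ones. In the additive test the log2 fold change was 0.28 (SE 0.0894, edgeR adjusted p = 0.0243), a fold of 1.22, called under 6 of 7 alternatives (0.00199 to 0.0661). Its implied length was 504 to 533 bases in the 4 libraries, near the short annotated transcripts (485 to 656 bases) and far from the 6983 bases of the main one, so its TPM rests on how reads were assigned. Short implied lengths can come out low: that of Gas5, 312 to 338 bases, lay below its shortest annotated transcript of 346 bases. An antisense gene, Gm37376, shares 453 exon bases with Malat1 and had 33590 to 36514 counts, which cannot be told apart without strand. With both summed, Malat1 had 66.1 to 66.9% of the sum, and the log2 ratio of deficient over wild type was 0.26 after doxorubicin and 0.30 untreated.

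Among 18 proteins of paraspeckles and nuclear speckles, 6 rose, 1 fell and 11 were not called, beside 23.8% of all genes called. The median additive log2 fold change of the 18 was 0.32. The largest values were in Srsf2 (a splicing factor of speckles, 0.83), Nono (a core paraspeckle protein, 0.76), Dazap1 (an RNA-binding protein, 0.71, not called at an edgeR adjusted p of 0.104) and Srsf3 (a splicing factor, 0.57). Frmd8, a protein-coding gene 4.22 kb from Neat1, fell at -0.60 (edgeR adjusted p = 8.76e-04). Neat1 and its neighbour were thus called in opposite directions.

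H19 (chromosome 7, 142575529 to 142578143, minus strand) rose most of the 9. It had 284 counts (14.4 CPM) in deficient and 11 (0.48 CPM) in wild type after doxorubicin, and 117 (6.80 CPM) in deficient and 30 (1.51 CPM) in wild type untreated. Both deficient values were above both wild-type values, and the lowest was still above the floor. The ratio was 29.9 (16.5 to 60.6) after doxorubicin and 4.51 (3.0 to 6.98) untreated. The additive log2 fold change was 3.46 (SE 0.725, edgeR adjusted p = 0.00131), called under all 7 alternatives (1.15e-06 to 0.0132).

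Igf2, the growth factor gene 72.6 kb from H19, did not do so. Its counts were 101 in deficient and 93 in wild type after doxorubicin, and 53 in deficient and 106 in wild type untreated. The log2 fold change of the additive test was -0.23 and was not called (edgeR adjusted p = 0.859). H19 is also the host of a microRNA, miR-675, whose gene had 0 counts in all 4 libraries with a kit not made for such short RNAs. Its mature forms (RefSeq, GRCm38.p6, minus strand) are shown with the seed, bases 2 to 8, in capitals.
miR-675-5p (chr7:142577112-142577133): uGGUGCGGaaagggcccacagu
miR-675-3p (chr7:142577078-142577099): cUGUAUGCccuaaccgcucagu

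Rian (Meg8; chromosome 12, 109603940 to 109661716, plus strand) rose. It had 553 counts (28.0 CPM) in deficient and 181 (7.91 CPM) in wild type after doxorubicin, and 399 (23.2 CPM) in deficient and 280 (14.1 CPM) in wild type untreated. Both deficient values exceeded both wild-type values. The ratio was 3.54 (2.99 to 4.21) after doxorubicin and 1.65 (1.41 to 1.93) untreated. In the additive test the log2 fold change was 1.27 (SE 0.343, edgeR adjusted p = 0.00968), called under all 7 alternatives (0.00198 to 0.0425).

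Meg3, 32.2 kb from Rian (chromosome 12, 109541001 to 109571726, plus strand), had 1775 counts (89.7 CPM) in deficient and 1367 (59.7 CPM) in wild type after doxorubicin, and 1602 (93.1 CPM) in deficient and 1400 (70.3 CPM) in wild type untreated. Both deficient values in CPM exceeded both wild-type values. It rose by an additive log2 fold change of 0.50 (SE 0.164, edgeR adjusted p = 0.0317), a fold of 1.41. That call was lost under 3 of 7 alternatives, with adjusted p from 0.0178 to 0.0772. On TPM its log2 ratio was 0.32 after doxorubicin and 0.08 untreated.

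The cluster's other genes were less clear. Mirg, a microRNA host 68 kb beyond Rian, had 28 counts in deficient and 5 in wild type after doxorubicin, and 35 in deficient and 7 in wild type untreated. Its ratios were 6.48 (2.47 to 21.5) and 5.79 (2.53 to 15.4) in that order. The additive log2 fold change of Mirg was 2.58 and was not called (edgeR adjusted p = 0.155). Rtl1, below a mean of 1 CPM and so not tested, had 16 counts in deficient and 3 in wild type after doxorubicin. Untreated, Rtl1 had 23 in deficient and 1 in wild type. Dlk1, a protein-coding gene of the paternal allele 77.7 kb from Meg3, had 2122 counts in deficient and 3343 in wild type after doxorubicin, and 1798 in deficient and 2060 in wild type untreated. Its additive log2 fold change was -0.22 and was not called (edgeR adjusted p = 0.359). Of 18 other imprinted genes tested (Igf2, Dlk1 and Mirg among them), 3 rose and 3 fell, beside 23.8% of all genes called. The other 12 were not called, and the median of the 18 was -0.05. The largest values were in Ascl2 (a placental transcription factor, -2.86, called), Mirg, Nnat (neuronatin, a membrane protein of neural cells, 1.42, called) and Cdkn1c (a cell cycle inhibitor, -1.35, edgeR adjusted p = 0.0643, not called).

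The Rian span holds 3 microRNA hairpins on its own strand in RefSeq, whose genes had 0 counts in all 4 libraries. Their 6 mature forms are shown to give the microRNA cargo of the transcript, with seeds in capitals as above. With those of H19, the 8 mature forms have 8 different seeds.
miR-341-5p (chr12:109611521-109611541): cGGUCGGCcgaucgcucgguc
miR-341-3p (chr12:109611556-109611576): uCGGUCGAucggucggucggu
miR-1188-5p (chr12:109611841-109611861): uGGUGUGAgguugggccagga
miR-1188-3p (chr12:109611877-109611901): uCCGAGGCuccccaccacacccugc
miR-370-5p (chr12:109618270-109618289): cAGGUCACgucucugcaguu
miR-370-3p (chr12:109618305-109618326): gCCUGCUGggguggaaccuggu

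Gas5 and Snhg1, both snoRNA hosts, were not called for genotype. Rian, which was called, also holds annotated snoRNA genes on its own strand. Gas5 (chromosome 1, 161034422 to 161038539, plus strand) had 1649 counts (83.4 CPM) in deficient and 1732 (75.6 CPM) in wild type after doxorubicin, and 1555 (90.3 CPM) in deficient and 1171 (58.8 CPM) in wild type untreated. In CPM both deficient libraries were above both wild-type ones, and the ratio was 1.10 (1.03 to 1.18) after doxorubicin and 1.54 (1.42 to 1.66) untreated. The additive log2 fold change was 0.38 (SE 0.175, edgeR adjusted p = 0.129). Zbtb37 overlaps the Gas5 locus on the other strand with 0 shared exon bases.

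Snhg1 (chromosome 19, 8723475 to 8726443, plus strand) had 179 counts (9.05 CPM) in deficient and 172 (7.51 CPM) in wild type after doxorubicin, and 138 (8.02 CPM) in deficient and 240 (12 CPM) in wild type untreated. The groups overlapped, with wild type holding both the highest and the lowest value. The log2 fold change of the additive test was -0.16 (SE 0.452, edgeR adjusted p = 0.848). On TPM the ratio after doxorubicin had the other sign, at -0.27 against 0.24 on CPM. Slc3a2, an amino acid transporter subunit that begins 0.105 kb away, fell at -0.52 (edgeR adjusted p = 0.00167).

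Such host genes often start with a run of pyrimidines, the motif that ties translation to growth signals. RefSeq (GRCm38.p6) has 2 annotated starts for Gas5, the downstream one shown, and 1 for Snhg1. In 60 bases with 20 before the start, the unbroken run of C and T at the start is in capitals.
Gas5 (chr1:161035146-161035205): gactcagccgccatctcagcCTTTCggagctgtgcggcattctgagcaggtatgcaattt
Snhg1 (chr19:8723467-8723526): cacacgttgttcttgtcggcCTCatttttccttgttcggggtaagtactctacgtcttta
The run is 5 bases at this Gas5 start, a length reached at 4.4% of all 32851 starts, 0 bases at the upstream Gas5 start, and 3 bases in Snhg1, reached at 10.7%.

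Among 15 other noncoding snoRNA hosts, 1 rose, 1 fell and 13 were not called, with a median of -0.26, beside 23.8% of all genes called. Snhg15 fell at -2.65 (edgeR adjusted p = 2.60e-07), with 147 counts in deficient and 1361 in wild type after doxorubicin, and 181 in deficient and 1041 in wild type untreated. Snhg18 rose at 1.51 (edgeR adjusted p = 0.0227). Snhg11 (2.66) and Snhg14 (1.07) were not called, with edgeR adjusted p of 0.141 and 0.145.

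**Figure D4:**
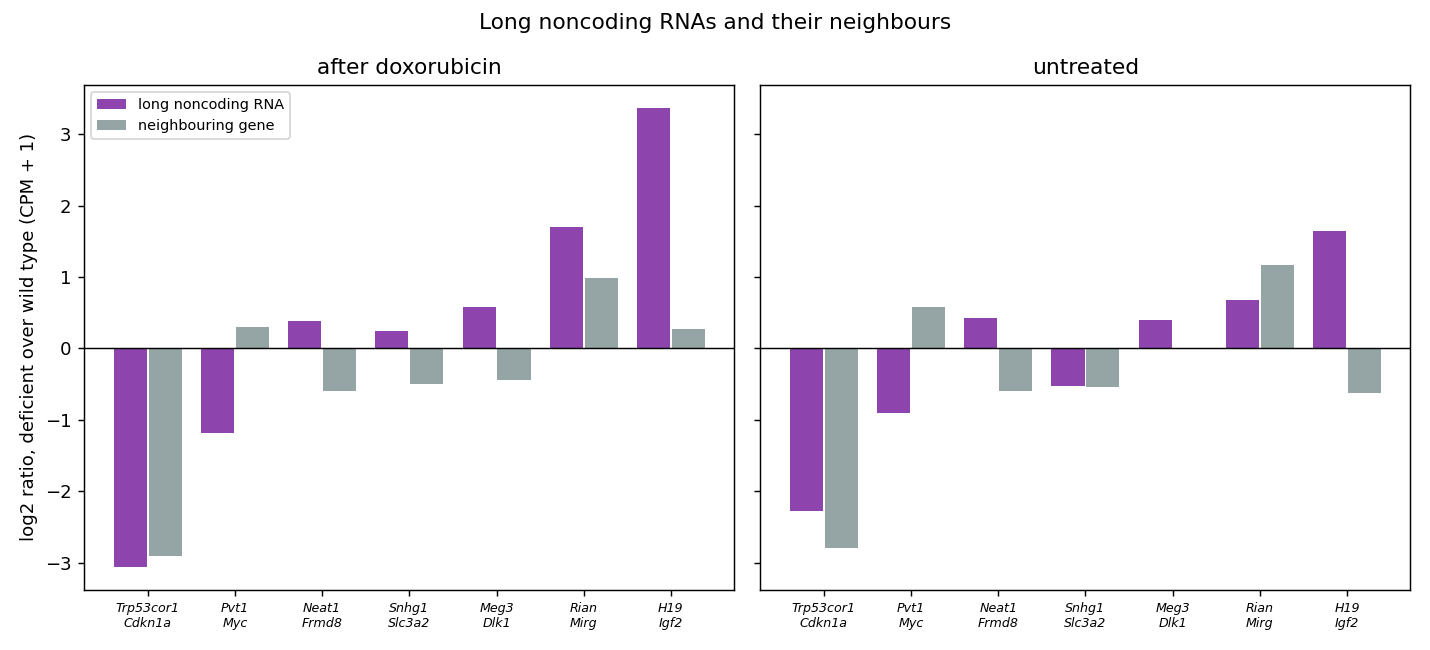
Log2 ratio (CPM + 1) of deficient over wild type for 7 long noncoding RNAs (purple) and 1 neighbouring gene each (grey), after doxorubicin on the left and untreated on the right, 1 library per group. Trp53cor1 and Cdkn1a are low together (-3.06 and -2.91 after doxorubicin), while H19 stands at 3.37 after doxorubicin beside 0.27 for Igf2.

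The second question was how the RNAs differ after doxorubicin. On the log2(CPM + 1) scale, 0 of the 9 differed at least 2-fold in deficient astrocytes, beside 3.51% of all genes, and 0 did in wild type, beside 9.53%. Without the added 1 CPM, H19 alone was past 2-fold, in both genotypes. In the additive test of treatment, none of the 9 was called, beside 0.218% of all genes (34 of 15596, 4 higher and 30 lower, or 22 and 56 with DESeq2 size factors). The lowest adjusted p among them was 0.789 (edgeR), and 1 of 9 had an unadjusted p under 0.05. That one was Neat1, with an additive log2 fold change of -0.29 (SE 0.121). DESeq2, where it gave an adjusted p, and limma-voom called none of the 9 either. Over all genes, 887 had an unadjusted p under 0.05. The sex of the cultures differs along with treatment in every one of these values.

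Trp53cor1 had 58 counts with doxorubicin and 62 untreated in deficient astrocytes, a ratio of 0.814 (0.559 to 1.18), and 726 and 426 in wild type, a ratio of 1.48 (1.31 to 1.67). The value was higher with doxorubicin in wild type beyond counting error, and in deficient the interval includes 1. For Cdkn1a the log2 ratio was 0.09 in deficient and 0.21 in wild type. The p53 list had 0 of 22 genes past 2-fold in either genotype, with medians of 0.11 in deficient and 0.16 in wild type.

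H19 had 284 counts with doxorubicin and 117 untreated in deficient astrocytes, a ratio of 2.11 (1.7 to 2.64), and 11 with doxorubicin and 30 untreated in wild type, a ratio of 0.319 (0.144 to 0.655). The 2 ratios lie on opposite sides of 1 beyond counting error, as they do for Rian and Gas5. Rian had a ratio of 1.21 (1.06 to 1.38) in deficient and 0.562 (0.464 to 0.68) in wild type, although on TPM both were negative in log2 (-0.24 and -0.38). The length implied by its counts over TPM was 2586 bases with doxorubicin and 1750 untreated in deficient, and 2042 and 2788 in wild type. What moved this length was not tested. Gas5 had 0.923 (0.861 to 0.99) in deficient and 1.29 (1.19 to 1.39) in wild type. The difference of the log2 responses, deficient minus wild type, was 1.74 for H19, 1.02 for Rian and -0.47 for Gas5, and on TPM 1.29, 0.15 and -0.32 for these RNAs in the same order. A size of at least 1 was reached by 13.7% of all genes, and no test of this difference is possible with 1 library per group.

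The remaining RNAs did not lie on opposite sides of 1 beyond counting error. Pvt1 had ratios of 0.601 (0.475 to 0.757) in deficient and 0.762 (0.66 to 0.879) in wild type, and Neat1 had 0.811 (0.784 to 0.839) and 0.828 (0.798 to 0.859) in the same order. Malat1 was at 0.913 (0.904 to 0.923) in deficient and 0.923 (0.913 to 0.933) in wild type. Meg3 was at 0.964 (0.901 to 1.03) in deficient and 0.849 (0.788 to 0.916) in wild type. Snhg1 was at 1.13 (0.899 to 1.42) in deficient and 0.623 (0.51 to 0.761) in wild type, and on TPM its log2 ratio in deficient had the other sign (-0.17). Its implied length in deficient was 530 bases with doxorubicin and 404 untreated. Neat1, Malat1 and Pvt1 were thus lower with doxorubicin under both genotype labels, but for Pvt1 in deficient hardly so on TPM, at 8.11 TPM with doxorubicin and 8.21 TPM untreated.

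**Figure D5:**
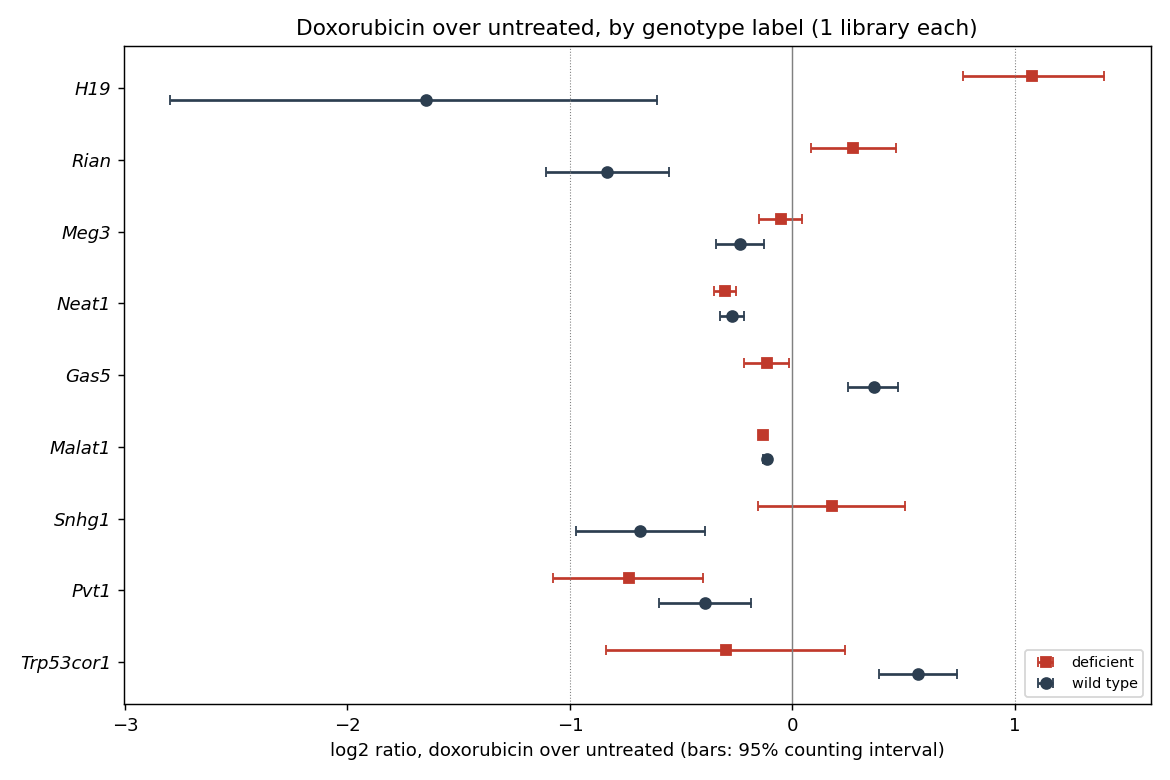
Log2 ratio of doxorubicin over untreated for each RNA, without a pseudocount, in deficient (red squares) and wild-type (dark circles) astrocytes, 1 library per group, with 95% counting intervals. Dotted lines mark 2-fold. Neat1 and Malat1 coincide in both genotypes, and H19, Rian and Gas5 point in opposite directions, Rian on counts but not on TPM.

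Markers of other cells moved with genotype, in a test that called 23.8% of all genes. Of 10 oligodendrocyte lineage markers, 9 rose in the additive test and 1 was not called (median 2.31), and their summed level was 1069 and 1073 CPM in deficient against 346 and 473.5 CPM in wild type. Of 8 neuron markers tested out of 10, 5 rose and 3 were not called (median 1.37), and the 10 summed to 444 and 415 CPM in deficient and 203 and 229.7 CPM in wild type, doxorubicin and untreated in each case. Of the defining neuron markers, Dcx had 237 and 70 counts in deficient and 0 in both wild-type libraries, Snap25 had 62 and 36 against 0 and 0, and Slc17a6 was at 0 in all 4. Others of the list went the other way after doxorubicin: Rbfox3 had 7 counts in deficient and 24 in wild type, and Syt1 had 40 in deficient and 69 in wild type. Untreated, Rbfox3 had 17 counts in deficient and 0 in wild type, and Syt1 had 32 in deficient and 7 in wild type. Of 10 astrocyte markers, 8 rose and 2 were not called (median 0.70), summing to 9918 and 11179 CPM in deficient and 3810.4 and 3934 CPM in wild type. Their part in the higher H19, Rian and Meg3 was not tested. Of 10 microglia markers, 1 rose and 2 fell for genotype (median -0.15), summing to 633 and 921 CPM in deficient and 728 and 1019.5 CPM in wild type, and 1 was called for treatment. Of 8 fibroblast and meninges markers tested, 1 rose and 7 were not called (median 0.10).

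Other long noncoding RNAs split in direction as well. Of 17 tested, 3 rose, 3 fell and 11 were not called for genotype, with a median of -0.39, beside 23.8% of all genes called. Lncpint, a p53-induced RNA, fell at -2.38 (edgeR adjusted p = 3.24e-04), with 53 counts in deficient and 367 in wild type after doxorubicin, and 77 in deficient and 404 in wild type untreated. Miat rose at 2.12 (edgeR adjusted p = 0.0177), with 199 counts in deficient and 22 in wild type after doxorubicin, and 180 in deficient and 105 in wild type untreated. Pantr1, a neural RNA beside Pou3f3, rose at 1.45 (edgeR adjusted p = 2.88e-04), and Rmst was at -1.40 and not called (edgeR adjusted p = 0.278).

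Among 11312 named protein-coding or long noncoding genes averaging 5 CPM or more, the pattern nearest to each of the 3 most variable RNAs was sought over the 4 libraries. The measure was the Euclidean distance of log2(CPM + 1) values centred on their mean. Nearest to H19 were Gas2l3, a cytoskeletal linker of dividing cells, and Cdc45, a replication factor, both at a distance of 0.35. Cdc45 had 742 counts in deficient and 44 in wild type after doxorubicin, and 344 in deficient and 89 in wild type untreated. Nearest to Trp53cor1 were Gfra2 (a neurturin receptor, 0.13) and Dusp28 (a phosphatase, 0.14). Nearest to Rian were Lyplal1 (0.09) and Bcl2l12 (0.13).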

How the data were processed

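RNA was measured in 4 libraries, 1 per combination of genotype and treatment label. For each library the authors deposited a table that pairs every gene with an estimated count and its TPM, per the file headers. The tool name DRAGEN and the build name GRCm38 stand, with no role, per the submitters' processing notes. The version, the annotation release and any read filters were not given in the sources used here. Per the labels' protocols, a SMART-Seq v4 kit was used, which does not mark strand.

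The deposited estimated counts hold fractions in 5810 to 6451 genes per library and were rounded to whole numbers, and they are not normalized. The deposited TPM values sum to 1000000 in each library and served for levels between genes and as an alternative scale. Of 55487 identifiers, 55227 matched GENCODE vM21. Counts were scaled with the TMM factors of edgeR 4.0.16 (R 4.3.3), and 1 CPM was added before log2 ratios, which makes changes of low genes look smaller. A gene was past 2-fold at a log2 ratio of at least 1 in size and a mean of at least 1 CPM. Ratios have exact conditional binomial 95% intervals and levels have exact Poisson ones. Reads carry no molecular identifiers, so the intervals and the floor describe counting error alone.

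Additive models of treatment and genotype used the counts of all libraries and edgeR's quasi-likelihood test, with 1 residual degree of freedom, a common dispersion of 0.0859 and 19.1 prior degrees of freedom, and calls were made at a Benjamini-Hochberg adjusted p of at most 0.05. The genotype fit was also run on simulated counts with no treatment effect and a smaller dispersion, which does not check these p-values. No label says that the cultures were separate beyond their groups, so p-values reflect the spread of these libraries alone, which may be technical. The alternatives were DESeq2 1.42.0, limma-voom (limma 3.58.1), DESeq2 size factors, total counts, deposited TPM, a pseudocount of 0.5 or 5 CPM, a minimum mean raised to 5 CPM or dropped, a model without the other factor, and a fit without genes on X and Y.

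The 9 RNAs, the gene lists and the tests were chosen with earlier results of these data known. Named genes were the 9 RNAs, from each list at most 4 genes, taken by size of change, fixed neighbours, and the 2 genes nearest in pattern to each of the 3 most variable RNAs. The overlapping genes AC167363.1, Gm37376 and Zbtb37, the cluster gene Rtl1, and the markers Dcx, Snap25, Slc17a6, Rbfox3 and Syt1 were named after their values were seen. Y-linked genes were not named.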

Additional observations from a re-analysis of the deposited data

Results flagged for a closer look

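H19, Rian and Gas5 had doxorubicin ratios on opposite sides of 1 in deficient and wild-type astrocytes, each beyond its counting interval. On the log2(CPM + 1) scale, doxorubicin over untreated, H19 was at 0.98 in deficient and -0.76 in wild type, Rian at 0.26 in deficient and -0.76 in wild type, and Gas5 at -0.11 in deficient and 0.36 in wild type. On deposited TPM, Rian was lower with doxorubicin in both, at -0.24 in deficient and -0.38 in wild type. The difference between the genotypes was not tested, because each group holds 1 library, and the sex of the culture differs along with the treatment label in both genotypes.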

How the results depend on the processing

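Of 42 recalculated counts of the 9 RNAs, 37 stayed within 1.5 times the reported one. Past 2-fold between deficient and wild type untreated, 2 RNAs became 4 on deposited TPM (Pvt1 and Rian added) and 1 with a pseudocount of 5 CPM, which left H19 at 0.86. Past 2-fold with doxorubicin, 0 became 1 (H19) in each genotype with a pseudocount of 0.5 CPM. Without the treatment term, the genotype test called 3 of the 9 and not 7. Single calls for genotype were lost 8 times: Pvt1 and Meg3 under DESeq2, no minimum and the model without treatment, and Neat1 and Malat1 under the last of these. Against the additive estimates, directions turned 3 times. Snhg1 for genotype did so with the doxorubicin label alone (0.24), a ratio of single libraries that has no test. H19 for treatment did so with limma-voom (0.74) and with genotype left out (0.81), and was called in neither. On deposited TPM the sign also turned for Neat1 between genotypes untreated (-0.28), for Snhg1 between genotypes after doxorubicin (-0.27), and for Rian (-0.24) and Snhg1 (-0.17) with doxorubicin in deficient. The difference of the responses turned there for Pvt1 (0.25), Neat1 (0.41) and Malat1 (0.03). The causes were not tested. Over all genes, the treatment test called 34 and, under its alternatives, 0 to 92, and a pseudocount of 5 CPM cut the genes past 2-fold to 1406 (untreated) and 1490 (doxorubicin) between genotypes, and to 42 (deficient) and 226 (wild type) with doxorubicin. A minimum mean of 5 CPM left 1895 and 1961 between genotypes, and 184 and 609 with doxorubicin, in the same order.

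Leaving a library out of the additive tests was not done, since 0 residual degrees of freedom would remain. No paired analysis was possible because each group holds 1 library. Depth limits H19 most, with 11 counts in wild type with doxorubicin.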
